A study of Arabidopsis thaliana with 12 samples.

Results

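SWEET genes encode sugar transporters, and 14 of them were followed here in dark-grown Arabidopsis thaliana seedlings. They were taken as every probe set of the Affymetrix ATH1 array that is paired with exactly 1 gene whose symbol is SWEET followed by a number. This gave 14 probe sets, and as many genes, out of 22746 probe sets, for SWEET1 (AT1G21460), SWEET2 (AT3G14770), SWEET3 (AT5G53190), SWEET4 (AT3G28007), SWEET6 (AT1G66770), SWEET7 (AT4G10850), SWEET8 (AT5G40260), SWEET9 (AT2G39060), SWEET10 (AT5G50790), SWEET11 (AT3G48740), SWEET13 (AT5G50800), SWEET14 (AT4G25010), SWEET16 (AT3G16690) and SWEET17 (AT4G15920). None of the 14 has a probe set name ending in _s_at or _x_at, the endings that mark probes shared between transcripts. SWEET12 was not analysed here.

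As background, SWEET proteins let sugars cross a membrane along their concentration gradient, in either direction and without an energy supply. Members of the first clades move mainly hexoses, the clade of SWEET9 to SWEET15 moves sucrose out of cells, and SWEET16 and SWEET17 sit in the vacuole membrane. Brassinosteroids are steroid hormones of cell elongation, and Aux/IAA proteins repress genes of the auxin response until auxin has them degraded.

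The seedlings were of the ecotype Columbia and were wild type (WT), msg2 mutants or axr2 mutants. As background, both mutants carry dominant changes that stabilise an Aux/IAA repressor, so the transcript of the mutated gene is not a check of the label. Each genotype grew on medium holding 2% sucrose, either mock-treated or with 100 nM 24-epibrassinolide (24-eBL), a brassinosteroid, for 4 days in darkness after 8 h of light. All 6 groups therefore shared the sugar in the medium and the darkness, and also 3 days of cold, a temperature of 22 °C and an age of 4 days. Each group had 2 arrays that the submitters call biological replicates. Values are log2 signals, in which 1 unit is a doubling. The 40th percentile of an array, 5.99 to 6.34 here, was taken as background, and a value at or below it is called dim. Replicate arrays correlated at 0.968 to 0.979 across the tested probe sets. PORB, a chlorophyll-synthesis gene from the list for etiolated seedlings, lay between 12.50 and 13.20 on the 12 arrays. PORA, the other gene of that list, had no single-gene probe set, so the PORB level alone does not check the dark growth. Of 35 symbols in 7 fixed lists of tissue markers only PORB, EXPA7, EXPA18 and WRKY53 had a single-gene probe set, so phloem, seed and pollen markers could not be set beside the SWEET genes.

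SWEET1, SWEET11, SWEET16 and SWEET17 were above background on all 12 arrays. SWEET2 was so on 11 arrays and SWEET3 on 7, namely all but 1 of the wild-type and msg2 arrays and none of the axr2 arrays. SWEET14 was above background on 4 arrays and SWEET13 on 2. SWEET14 reached it on both treated axr2 arrays, 1 untreated axr2 array and 1 treated msg2 array, and SWEET13 on the treated axr2 arrays alone. SWEET4, SWEET6, SWEET7, SWEET9 and SWEET10 were above background on no array, and SWEET8, known as a gene of pollen wall formation, on 1 untreated wild-type array at 6.42.

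**Figure D1:**
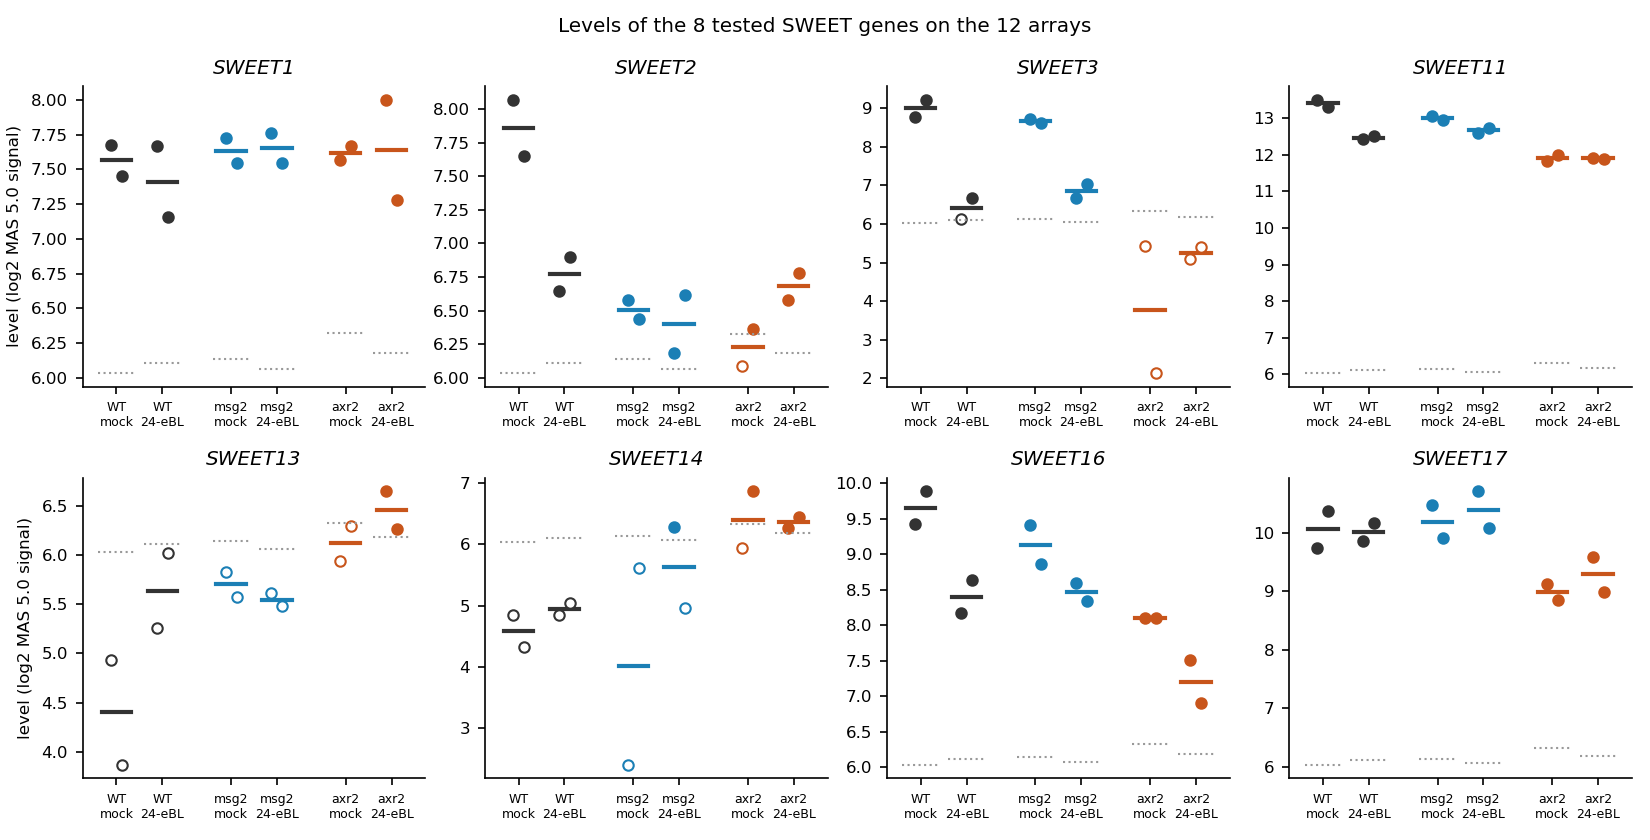
Level (log2 MAS 5.0 signal) of each of the 8 tested SWEET genes by group; each point is 1 array, filled where it is above background and open where it is dim, each thick line is the mean of 2 arrays and the dotted line is the mean background of the group. Vertical scales differ between genes; SWEET3 is open on all 4 axr2 arrays, and SWEET11 has its 2 highest arrays, 13.50 and 13.31, in untreated wild type.

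The 6 members near background all the time were not tested. Their 72 values ran from 0 to 6.42 with a median of 4.48, and 1 of the 72 was above background. SWEET9, known for nectar secretion, lay between 3.40 and 5.88. SWEET10 and SWEET13 are direct neighbours in the gene order of assembly TAIR10.1, and SWEET10 lay between 0.49 and 5.45. At such levels the spread within a group was wide: SWEET7 read 4.56 and 0.76 on the untreated axr2 arrays, and SWEET4 read 0 and 3.51. No difference between groups is read from these 6 genes.

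**Figure D2:**
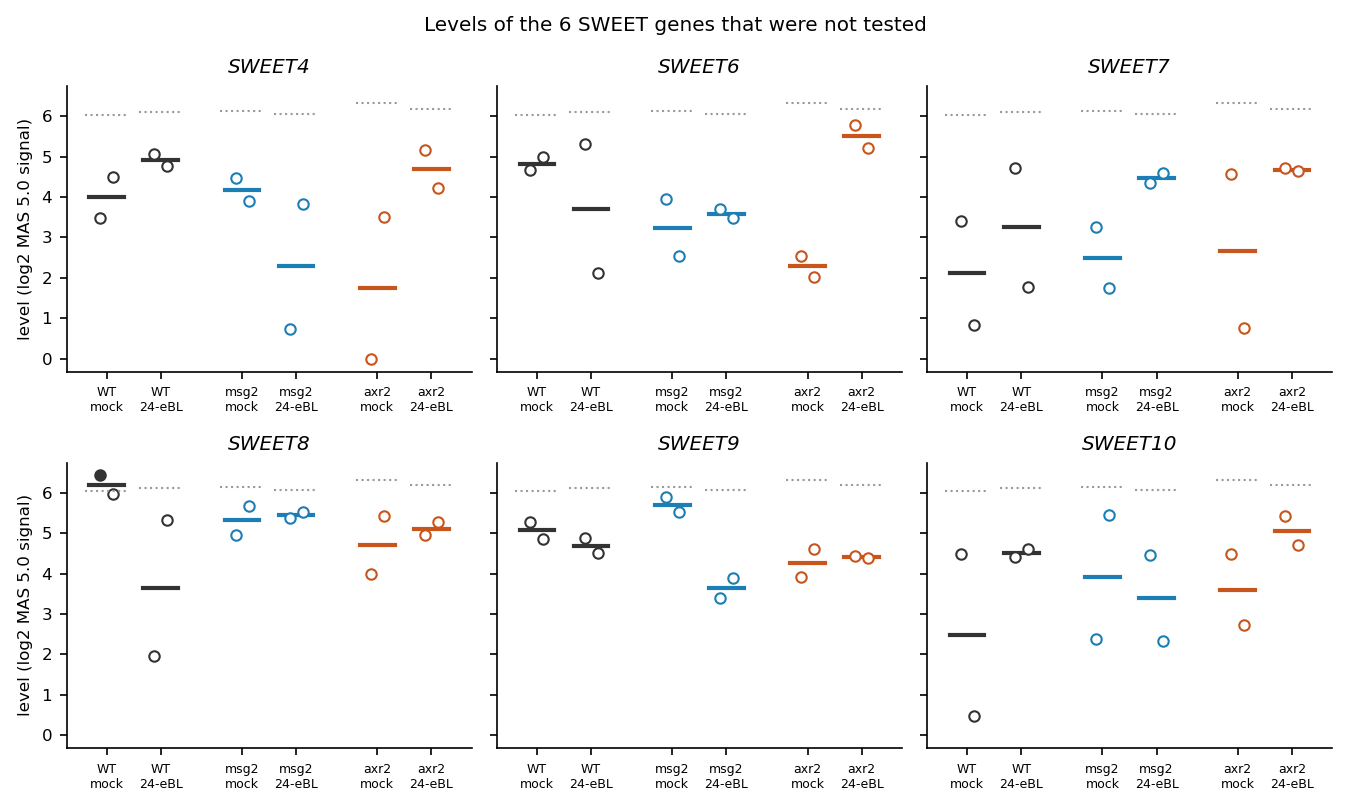
Level (log2 MAS 5.0 signal) of the 6 SWEET genes that were not tested, by group and on 1 common vertical scale; each point is 1 array, open where dim, each thick line is the mean of 2 arrays and the dotted line is the mean background of the group. A single point, SWEET8 at 6.42 in untreated wild type, is filled.

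The other 8 members were tested with limma together with all 15025 probe sets that passed the same filter, and called at a Benjamini-Hochberg adjusted p under 0.05 over all of these. SWEET13 passed the filter through the 2 treated axr2 arrays alone, at 6.65 and 6.27 beside backgrounds of 6.23 and 6.14. SWEET14 passed it mainly through axr2 arrays, and SWEET3 through wild-type and msg2 arrays alone. Counts and medians over the 8 therefore do not stand for the family. In wild type 24-eBL lowered 4 of the 8 genes, SWEET2, SWEET3, SWEET11 and SWEET16, and raised none, where 2.47% of all tested probe sets fell and 2.20% rose. In whole seedlings fewer cells of a type and less RNA per cell cannot be told apart. The median change of the 8 was −0.55, beside 0.04 over all tested probe sets. In msg2 limma called 0 of the 8 (3.92% of all probe sets called, 3 of the 8 with unadjusted p under 0.05), and the median change was −0.13. In axr2 it also called 0 (2.41% of all, 2 of the 8 with unadjusted p under 0.05), with a median of 0.16. Averaged over the genotypes SWEET11 and SWEET16 fell and none rose, where 4.98% of all probe sets fell and 3.73% rose.

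**Figure D3:**
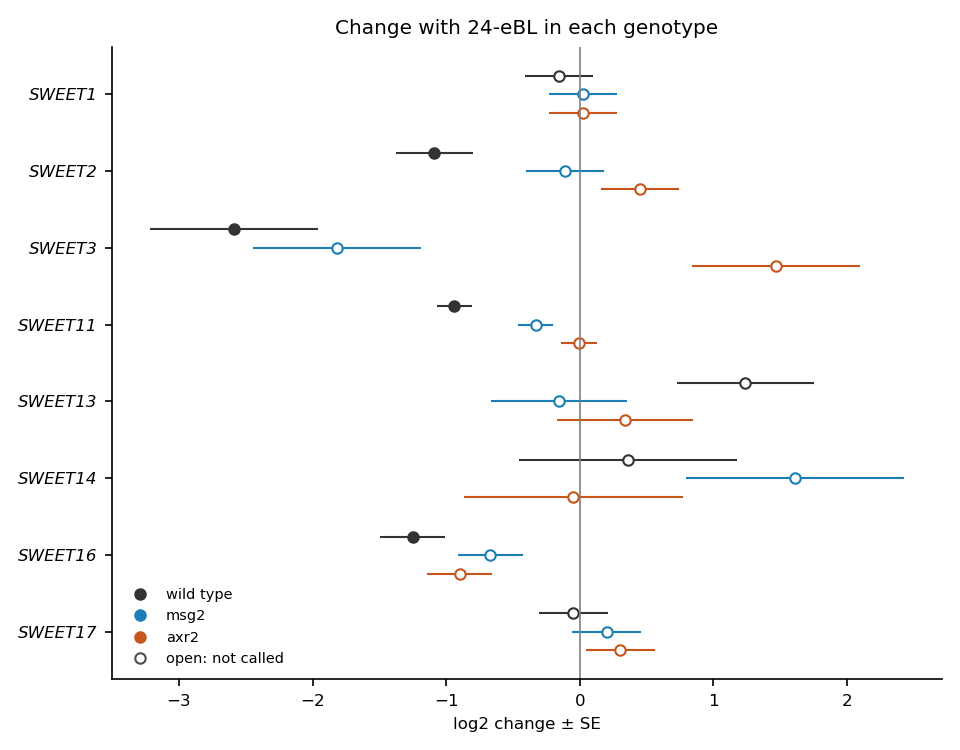
Change with 24-eBL (log2, treated minus mock, horizontal axis) of the 8 tested SWEET genes in wild type, msg2 and axr2; points are the limma estimates from 2 arrays per group, bars are ± SE and filled points are called at adjusted p under 0.05. The filled points are those of SWEET2, SWEET3, SWEET11 and SWEET16 in wild type, all below 0.

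Untreated axr2 seedlings had lower levels than untreated wild type for SWEET2, SWEET3, SWEET11, SWEET16 and SWEET17, and these 5 of the 8 stand beside 15.0% of all tested probe sets lower. SWEET3 passed the filter only through wild-type and msg2 arrays, so it adds no support to this count or to that against msg2. SWEET13 was called higher, where 20.5% of all were higher, but all 4 of its values were dim. The call ended with dim values raised to background, which leaves only the backgrounds to compare. The median change was −1.28 over the 8 genes and 0.13 over all probe sets. That of the 8 takes in SWEET3, SWEET13 and SWEET14, which the filter chose as given above, so it adds no support either. With arrays centred on their medians the overall median was −0.10 and the share of all called probe sets that were higher went from 57.8% to 34.3%, while the 5 SWEET genes stayed called lower. Against untreated msg2 the axr2 mutant was lower for SWEET3, SWEET11, SWEET16 and SWEET17 and higher for none (8.52% of all probe sets lower, 8.27% higher). With 24-eBL axr2 was lower than wild type for SWEET11, SWEET16 and SWEET17 (14.0% of all lower, 14.6% higher) and lower than msg2 for the same 3 genes (7.07% of all lower, 5.73% higher). PORB was higher in treated axr2 than in treated wild type (0.60 ± 0.12, adjusted p = 0.0013) and than in treated msg2 (0.41 ± 0.12, adjusted p = 0.037, a call lost when any 1 of the 4 msg2 or 2 treated axr2 arrays was dropped, adjusted p at most 0.22, and under centring, adjusted p = 0.13). Its part in the SWEET differences was not tested. Between untreated msg2 and untreated wild type limma called SWEET2 alone, which was lower (2.00% of all lower, 2.12% higher). Of the 8 genes 4 had unadjusted p under 0.05 there. SWEET11 (−0.403 ± 0.13, adjusted p = 0.10) and SWEET16 (−0.52 ± 0.25, adjusted p = 0.27) were lower but not called. SWEET13 read higher, was not called and was dim on all 4 arrays. With 24-eBL limma called 0 of the 8 genes between msg2 and wild type (7.51% of all called, 0 of the 8 with unadjusted p under 0.05). These comparisons share arrays and are not independent of each other.

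**Figure D4:**
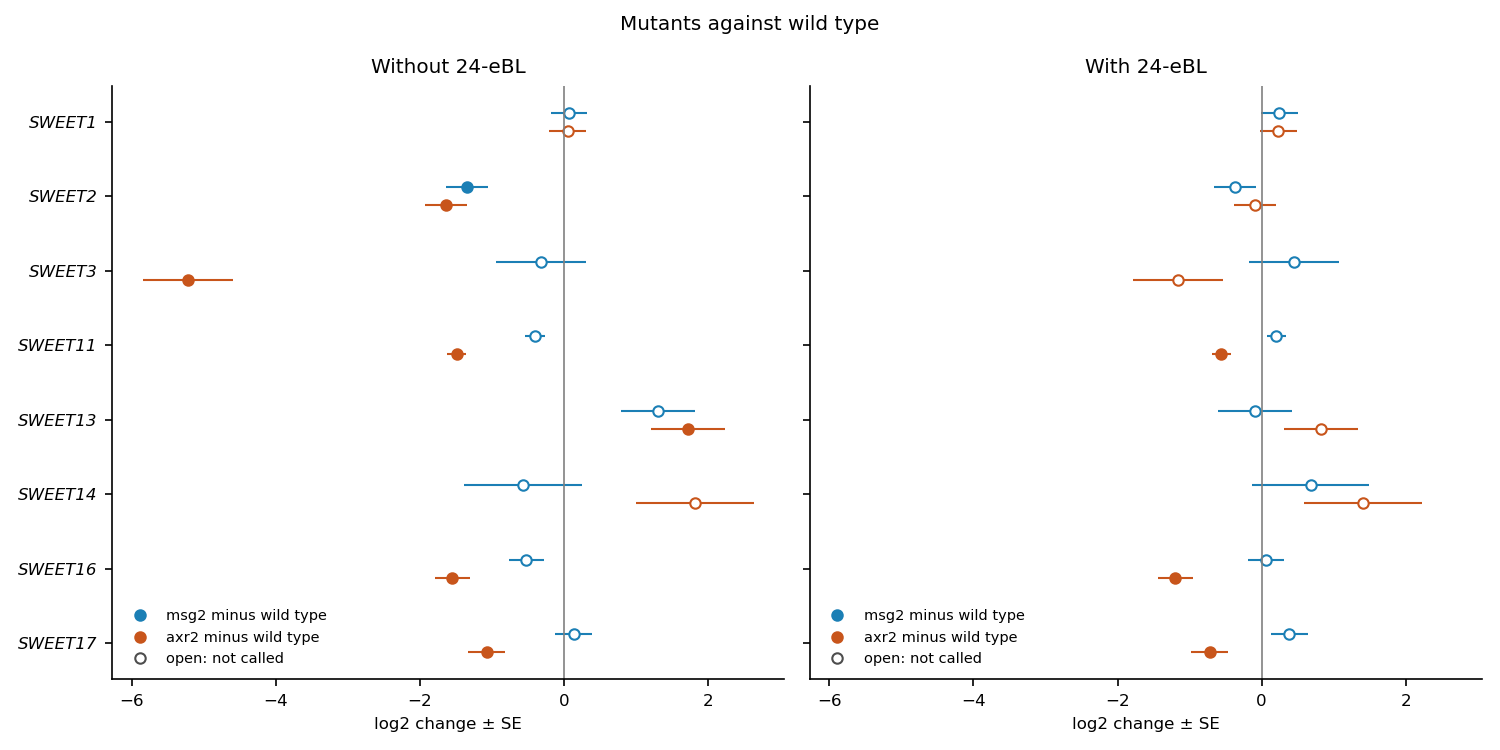
Difference from wild type (log2, horizontal axis) of the 8 tested SWEET genes in msg2 and axr2, without 24-eBL on the left and with it on the right; points are the limma estimates from 2 arrays per group, bars are ± SE and filled points are called at adjusted p under 0.05. The point of SWEET3 in untreated axr2 rests on 2 dim axr2 values, and the bound with these raised to background is −2.67.

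SWEET11 exports sucrose from leaf phloem parenchyma toward the phloem, together with SWEET12, and also serves the filling of seeds. Its level was 13.50 and 13.31 in untreated wild type and 12.43 and 12.51 with 24-eBL. In msg2 it was 13.07 and 12.94 untreated and 12.61 and 12.74 treated. In axr2 it was 11.83 and 12.003 untreated and 11.92 and 11.89 treated. The 2 arrays of each group lay close together, and the order of the groups ran from untreated wild type through untreated msg2, treated msg2 and treated wild type to axr2. Neighbouring groups in that order did not overlap, apart from the 2 axr2 groups, which did. With 24-eBL 20.6% of all tested probe sets were lower without overlap in wild type and 25.7% in msg2. The share for the whole order was not counted, so the order is a description.

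With 24-eBL SWEET11 fell 1.92-fold in wild type, a log2 change of −0.94 ± 0.13 (SE, adjusted p = 0.00018). Its change in msg2 was −0.33 ± 0.13 (adjusted p = 0.22) with arrays that did not overlap (25.7% of all probe sets were lower in this way), and in axr2 −0.01 ± 0.13 (adjusted p = 0.99; 95% interval −0.29 to 0.27). The response in axr2 differed from that in wild type by 0.93 ± 0.19 (adjusted p = 0.011), where 1.11% of all probe sets had a called positive difference and 1.49% a negative one. It was no longer called when WT_mock replicate 1 or WT_BR replicate 1 was dropped (adjusted p at most 0.072), nor without the intensity trend in the variances (adjusted p = 0.086). The difference between msg2 and wild type was 0.61 ± 0.19 and was not called (adjusted p = 0.27; 0.213% of all probe sets called), nor was that between axr2 and msg2 (0.32 ± 0.19, adjusted p = 0.64; 0.546% of all called).

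Untreated axr2 held SWEET11 2.81-fold lower than untreated wild type (−1.49 ± 0.13, adjusted p = 1.9e-07) and 2.13-fold lower than untreated msg2 (−1.09 ± 0.13, adjusted p = 1.8e-05). With 24-eBL the axr2 level was 1.48-fold below wild type (−0.56 ± 0.13, adjusted p = 0.0037) and 1.70-fold below msg2 (−0.77 ± 0.13, adjusted p = 0.00075). Dropping any single array ended none of these 4 calls. Without 24-eBL, too, each axr2 array was below both treated wild-type arrays.

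SWEET3 belongs to the clade of SWEET1 and SWEET2. Its level was 8.77 and 9.22 in untreated wild type and 6.13 and 6.68 with 24-eBL, the first of these dim. In msg2 it was 8.72 and 8.63 untreated and 6.67 and 7.04 treated. In axr2 it was 5.42 and 2.13 untreated and 5.09 and 5.41 treated, all 4 dim. Untreated wild type and untreated msg2 thus held all of the values above 8, and their treated counterparts were near background.

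In wild type SWEET3 was at least 5.90-fold lower with 24-eBL, with dim values raised to background (−2.59 ± 0.63 as measured, adjusted p = 0.021). That call was lost without any 1 of the 4 wild-type arrays (adjusted p up to 0.17), with no filter (adjusted p = 0.067) and without the intensity trend (adjusted p = 0.14). In msg2 it was 3.52-fold lower (−1.82 ± 0.63, adjusted p = 0.14) but not called. Its arrays there did not overlap, where 25.7% of all probe sets were lower in this way. The spread of this gene is shared by all 6 groups and includes the dim untreated axr2 pair, 5.42 and 2.13. With dim values raised to background the fall was called in wild type (−2.56, adjusted p = 5.3e-06) and in msg2 (−1.82, adjusted p = 0.00024), and averaged over the genotypes (−1.51, adjusted p = 2e-06) where it was not called as deposited (−0.98 ± 0.36, adjusted p = 0.11). Raising replaced the untreated axr2 pair by backgrounds of 6.34 and 6.31, which narrows the shared spread by construction. The axr2 part of the average was then a gap between backgrounds, so these lower adjusted p values are no independent support.

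Untreated axr2 held SWEET3 at least 6.36-fold lower than untreated wild type (adjusted p = 5.9e-06) and at least 5.09-fold lower than untreated msg2 (adjusted p = 3.3e-05), and leaving out any 1 array ended neither call. The change with 24-eBL in axr2, 1.47 ± 0.63 (adjusted p = 0.27), lay among dim values and gives no direction. The response differed between axr2 and wild type by 4.06 ± 0.89 (adjusted p = 0.017), or 2.42 with dim values raised (adjusted p = 0.0012). In the raised setting all 4 axr2 values are backgrounds. That 2.42 therefore rests on the wild-type arrays, holds no SWEET3 signal from axr2 and adds no support for a difference of response. Without axr2_mock replicate 2, the array at 2.13, the difference was also 2.42. The level in untreated axr2 was already below background, so a fall there could not have been measured. The difference was no longer called when WT_mock replicate 1, WT_mock replicate 2, WT_BR replicate 1 or axr2_BR replicate 2 was dropped (adjusted p at most 0.086), with no filter (adjusted p = 0.061) and without the intensity trend (adjusted p = 0.14).

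SWEET2 encodes a vacuole-membrane transporter known from roots, where it limits the loss of sugar. Its level was 8.07 and 7.65 in untreated wild type and 6.64 and 6.90 with 24-eBL. It was 6.58 and 6.44 in untreated msg2, 6.18 and 6.62 in treated msg2, 6.09 and 6.36 in untreated axr2 and 6.58 and 6.78 in treated axr2, and the value of 6.09 was dim. Untreated wild type stood above the 10 other arrays, which lay within 6.09 to 6.90, a separation not counted over all probe sets.

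SWEET2 was 2.55-fold lower in untreated msg2 than in untreated wild type (−1.35 ± 0.29, adjusted p = 0.014), and at least 2.85-fold lower in untreated axr2 (−1.63 ± 0.29, adjusted p = 0.00032). It fell 2.12-fold with 24-eBL in wild type (−1.09 ± 0.29, adjusted p = 0.038). Its changes in msg2 (−0.11 ± 0.29) and axr2 (0.45 ± 0.29) were not called, and the difference of response between axr2 and wild type was 1.54 ± 0.41 (adjusted p = 0.054), or adjusted p = 0.030 with arrays centred on their medians. Untreated SWEET2 already lay near background in msg2 (6.58 and 6.44, beside 6.11 and 6.17) and in axr2 (6.09 and 6.36, beside 6.34 and 6.31). A fall of the wild-type size could not have been measured in either mutant. The wild-type call was lost without any 1 of the 4 wild-type or 2 untreated msg2 arrays (adjusted p up to 0.34) and with no filter (adjusted p = 0.11). The msg2 call was lost without WT_mock replicate 1 or either untreated msg2 array (adjusted p up to 0.19).

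SWEET1, a glucose transporter of the plasma membrane, lay between 7.16 and 8.00 on the 12 arrays. All neighbouring groups overlapped, and it was called in none of 13 comparisons. Its change with 24-eBL was −0.15 in wild type (95% interval −0.69 to 0.38), 0.02 in msg2 and 0.02 in axr2. Its difference between untreated axr2 and untreated wild type was 0.05 (95% interval −0.48 to 0.59).

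SWEET16 and SWEET17 encode transporters of the vacuole membrane, SWEET17 being known for fructose. SWEET16 was at 9.42 and 9.89 in untreated wild type and at 8.17 and 8.64 with 24-eBL. It was at 9.41 and 8.86 in untreated msg2 and at 8.59 and 8.34 in treated msg2. In axr2 it was at 8.10 and 8.11 untreated and at 7.50 and 6.91 treated, the lowest of the 6 groups. The treated arrays were below the untreated ones in each genotype, without overlap. Of all tested probe sets 20.6% were lower without overlap in wild type, 25.7% in msg2 and 25.2% in axr2.

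SWEET16 fell 2.38-fold with 24-eBL in wild type (−1.25 ± 0.25, adjusted p = 0.0042), a call that ended when WT_mock replicate 2 or WT_BR replicate 1 was dropped (adjusted p at most 0.090). Its changes of −0.67 ± 0.25 in msg2 (adjusted p = 0.17) and −0.90 ± 0.25 in axr2 (adjusted p = 0.062) were not called. Averaged over the genotypes it fell by 0.94 ± 0.14 on the log2 scale (adjusted p = 0.00019), and no difference of response between genotypes was called. The difference between axr2 and wild type was 0.35, with a 95% interval of −0.38 to 1.08. SWEET16 was 2.93-fold lower in untreated axr2 than in untreated wild type (−1.55 ± 0.25, adjusted p = 0.0001), and 2.29-fold lower with 24-eBL (−1.20 ± 0.25, adjusted p = 0.0012). Against msg2 it was 2.04-fold lower untreated (adjusted p = 0.0078; 0.14 without msg2_mock replicate 1) and 2.39-fold lower treated (adjusted p = 0.0020).

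SWEET17 was at 9.74 and 10.38 in untreated and 9.86 and 10.16 in treated wild type. It was at 10.47 and 9.91 in untreated and 10.71 and 10.07 in treated msg2. In axr2 it was at 9.12 and 8.84 untreated and 9.58 and 8.99 treated. All axr2 arrays were below all others, a separation not counted over all probe sets, and wild type and msg2 overlapped. It was 2.11-fold lower in untreated axr2 than in untreated wild type (−1.08 ± 0.26, adjusted p = 0.0035; 0.075 without WT_mock replicate 2) and 2.31-fold lower than in untreated msg2 (adjusted p = 0.0035; 0.081 without msg2_mock replicate 1). With 24-eBL it was 1.65-fold below wild type (adjusted p = 0.043) and 2.15-fold below msg2 (adjusted p = 0.0075). The first call ended when WT_BR replicate 1, WT_BR replicate 2 or axr2_BR replicate 2 was dropped (adjusted p at most 0.35), the second when msg2_BR replicate 1 or axr2_BR replicate 2 was dropped (adjusted p at most 0.13). Further settings ended the call against treated wild type, with adjusted p = 0.061 after quantile normalisation, 0.054 with dim values raised, 0.074 with no filter and 0.13 without the intensity trend, and the last of these ended that against treated msg2 (adjusted p = 0.064). Its change with 24-eBL was −0.05 in wild type (95% interval −0.59 to 0.49), and it was called in no genotype.

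SWEET13 and SWEET14 are close relatives of SWEET11 in sequence and are known to act together in the opening of anthers. SWEET13 was at 4.93 and 3.87 in untreated wild type, 5.25 and 6.02 in treated wild type, 5.83 and 5.58 in untreated msg2 and 5.61 and 5.48 in treated msg2. It was at 5.94 and 6.30 in untreated axr2 and at 6.65 and 6.27 in treated axr2, and the last 2 alone were above background. SWEET13 was called higher in untreated axr2 than in untreated wild type (1.72 ± 0.51, adjusted p = 0.014). All 4 values were dim, so no fold is given. The gene entered the test through treated axr2 arrays alone, so the call adds no support for a higher level in axr2. With dim values raised only the array backgrounds are left, 0.29 apart (adjusted p = 0.16), and that value holds no SWEET13 signal. Dropping WT_mock replicate 2 or axr2_mock replicate 2 also ended the call (adjusted p at most 0.13).

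SWEET14 was at 4.85 and 4.32 in untreated and 4.84 and 5.05 in treated wild type, and at 2.41 and 5.62 in untreated and 6.29 and 4.96 in treated msg2. In axr2 it was at 5.94 and 6.87 untreated and 6.27 and 6.44 treated. The axr2 arrays were above all wild-type arrays, a separation not counted over all probe sets, but overlapped those of treated msg2. Its difference between untreated axr2 and untreated wild type was 1.82 ± 0.82 (adjusted p = 0.092), and it was called in none of 13 comparisons as deposited. With dim values raised this difference was 0.57 and was called (adjusted p = 0.023). Only axr2_mock replicate 2, at 6.87, was then a measured value, and the rest were backgrounds. Between these groups the backgrounds alone lay 0.29 apart, as given for SWEET13. The difference was also called with an offset of 16 on the signal (1.33, adjusted p = 0.035) and without msg2_mock replicate 1 or msg2_mock replicate 2. SWEET14 entered the test mainly through axr2 arrays, so these calls add no support for a higher level in axr2. The background itself lay higher on the axr2 arrays, at 6.14 to 6.34, than on the others, at 5.99 to 6.19. Its part in the higher readings of SWEET13 and SWEET14 as deposited was not tested.

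Across the 12 arrays SWEET11 varied most closely with SWEET16 (Pearson r = 0.89) and SWEET3 (r = 0.87), and SWEET3 with SWEET16 at r = 0.75. SWEET1 correlated with no other member beyond 0.20 in size. These 12 points share the 6 groups and the separation of axr2 from the other genotypes, so the values are a description. Among 1158 other tested genes with a name, those most like SWEET11 were ACYB-2, a cytochrome b561 gene (r = 0.95), the pectin methylesterase gene PME61 (r = 0.94) and ARD4, an acireductone dioxygenase gene (r = 0.93). Those most like SWEET3 were the vacuolar processing enzyme gene GAMMA-VPE (r = 0.92), ARD4 (r = 0.91) and the glyoxalase gene GLX2-5 (r = 0.91). Those most like SWEET16 were SIM, an inhibitor of cyclin-dependent kinases (r = 0.95), the peptide gene RALFL27 (r = 0.91) and the LIM-domain gene WLIM2b (r = 0.91). Over the 6 group means these 9 correlations lay between 0.93 and 0.99.

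Other genes of sugar transport and use could be compared only in part. Of 98 symbols in 7 lists 9 had a single-gene probe set, and 8 of these were tested; none of the listed sucrose transporter (SUC), hexose transporter (STP), polyol transporter or sucrose synthase and sucrose-phosphate synthase symbols had one. Of the 5 tested sugar porter genes TMT1, TMT2, TMT3, SFP1 and SFP2 none was called lower in any comparison. In untreated axr2 against untreated wild type, where 15.0% of all tested probe sets were called lower, all 5 estimates were below 0. They were −0.30, −0.26, −1.28, −0.41 and −0.44 in that order (limma, adjusted p at least 0.059). TMT3 was above background on 2 arrays, and SFP2 lay between 6.75 and 7.72. TMT1 and TMT2, tonoplast sugar carriers, lay between 11.23 and 11.76 and between 9.08 and 9.69 and were called in none of 13 comparisons. SFP1, of a family of sugar porters related to ERD6, rose with 24-eBL in axr2 (0.74 ± 0.16, adjusted p = 0.017), a call that ended when axr2_mock replicate 2, axr2_BR replicate 1 or axr2_BR replicate 2 was dropped (adjusted p at most 0.13) and without the intensity trend (adjusted p = 0.10).

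The invertase list was represented by cwINV6, which cleaves fructans. It was at 6.48 and 5.16, the latter dim, in untreated and at 8.11 and 7.58 in treated wild type. In msg2 it was at 6.31 and 5.81, the latter dim, untreated and at 8.00 and 7.77 treated. It rose in wild type (2.02 ± 0.38, adjusted p = 0.0025) and msg2 (1.83 ± 0.38, adjusted p = 0.0077), while SWEET2, SWEET3, SWEET11 and SWEET16 fell in wild type. The rise in wild type was no longer called when WT_mock replicate 2 or WT_BR replicate 1 was dropped (adjusted p at most 0.061), and that in msg2 when msg2_mock replicate 2 or msg2_BR replicate 1 was (adjusted p at most 0.11) or without the intensity trend (adjusted p = 0.053). Its change in axr2 was 0.83 ± 0.38 (adjusted p = 0.29). It was lower in treated axr2 than in treated wild type (−1.10 ± 0.38, adjusted p = 0.035), a call that ended when WT_BR replicate 1 or either treated axr2 array was dropped (adjusted p at most 0.23), with no filter (adjusted p = 0.087) and without the trend (adjusted p = 0.066). From the list of sugar starvation genes AKINBETA1, a subunit of an energy-sensing kinase complex, fell with 24-eBL in wild type (−0.69 ± 0.16, adjusted p = 0.015; up to 0.15 without WT_mock replicate 1, WT_mock replicate 2 or WT_BR replicate 1, and 0.070 without the intensity trend). It was lower in untreated axr2 than in untreated wild type (−1.09 ± 0.16, adjusted p = 4.6e-05). EXO, from the same list but known mainly as a brassinosteroid-raised gene of cell expansion, rose in wild type (1.16 ± 0.14, adjusted p = 2.3e-05) and msg2 (0.62 ± 0.14, adjusted p = 0.013; up to 0.20 without msg2_mock replicate 1 or msg2_BR replicate 1, and 0.082 without the intensity trend). In axr2 EXO was at 12.49 and 12.47 untreated and 12.55 and 12.47 treated. Its response there differed from wild type by −1.13 ± 0.19 (adjusted p = 0.0027, or 0.052 without the intensity trend). EXO was higher in untreated axr2 than in untreated wild type (0.50 ± 0.14, adjusted p = 0.0081). That call ended with arrays centred on their medians (adjusted p = 0.16) and without WT_mock replicate 2. With 24-eBL EXO was lower in axr2 than in wild type (−0.63 ± 0.14, adjusted p = 0.0018). AMY1 was above background on no array.

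Both root-hair markers with a probe set moved with 24-eBL beside the SWEET genes. EXPA18 fell in wild type (−2.02 ± 0.24), msg2 (−2.98 ± 0.24) and axr2 (−1.55 ± 0.24), with adjusted p = 2.3e-05, 4.5e-07 and 0.00092. EXPA7 fell in wild type (−2.09 ± 0.45, adjusted p = 0.0094) and msg2 (−2.40 ± 0.45, adjusted p = 0.0039). Its change in axr2, −1.40 ± 0.45, was not called (adjusted p = 0.12). Dropping replicate 2 of either wild-type group ended the first of these calls (adjusted p at most 0.11), as did leaving out the intensity trend (adjusted p = 0.051), and dropping msg2_mock replicate 1 or msg2_BR replicate 2 the second (adjusted p at most 0.093). In untreated axr2 EXPA18 was at 8.87 and 8.85, beside 8.46 and 8.61 in untreated wild type, and EXPA7 was at 7.31 and 6.81, beside 7.18 and 7.58. Neither was called there (0.33 ± 0.24 with adjusted p = 0.30 and −0.32 ± 0.45 with adjusted p = 0.62). In treated axr2 EXPA18 was higher than in treated wild type (0.80 ± 0.24, adjusted p = 0.017; at most 0.26 when WT_BR replicate 1 or axr2_BR replicate 1 was dropped). WRKY53, from the list of senescence genes, was above background on 4 arrays and called in no comparison. The part of root-hair cells in the differences of SWEET genes was not tested.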

How the data were processed

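Per the submitters' design text, the authors normalised 12 ATH1 arrays with MAS 5.0 and GeneSpring 11.0. The deposited values were taken as log2 signals, since the 2% trimmed mean of 2 raised to each value was 500.05 to 500.06 on every array, and no further normalisation was applied. They cover 22810 probe sets, of which 64 controls were left out. Detection calls were not used here. Of 22746 probe sets 13513 were paired with exactly 1 gene, named through the RefSeq table of TAIR10.1.

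Probe sets above the 40th percentile of their array on at least 2 of 12 arrays were tested (15025). A model with 1 mean per group was fitted in limma 3.58.1 (R 4.3.3) with variances that followed intensity (6 residual and 12 prior degrees of freedom), and Benjamini-Hochberg adjustment covered the whole tested set in each of 13 comparisons. Where the lower group held dim values these were raised to the percentile and the fold is a lower bound. The code was tested on simulated arrays. The precision is limited by 2 arrays per group.

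SWEET members and lists were chosen with earlier results of these data known. All members are named. Genes of similar pattern are the 3 with the highest Pearson r to SWEET11, SWEET3 and the other member with most calls. Of the sugar lists, called genes and the 3 brightest others were to be named, and TMT3 and AMY1 are named besides. Alternatives were quantile normalisation, median centring, an offset of 16, dim values raised, no filter, no variance trend, a replicate block and leaving out each array.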

Additional observations from a re-analysis of the deposited data

Results flagged for a closer look

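SWEET3 and SWEET11 were singled out because their response to 24-eBL differed between axr2 and wild type in the test of the difference itself. For SWEET3 the difference was 4.06 on the log2 scale (adjusted p = 0.017), with arrays at 8.77 and 9.22 in untreated and 6.13 and 6.68 in treated wild type, and group means of 3.78 and 5.25 in untreated and treated axr2, where all arrays were dim. For SWEET11 it was 0.93 (adjusted p = 0.011), with untreated and treated group means of 13.41 and 12.47 in wild type and of 11.92 and 11.91 in axr2, where all arrays were above background. With dim values raised, or without axr2_mock replicate 2, the difference of SWEET3 was 2.42. In the raised setting the axr2 side of that difference is the gap between backgrounds alone. In limma without the variance trend neither difference was called (adjusted p = 0.14 for SWEET3 and 0.086 for SWEET11). That of SWEET3 was not called with no filter either (adjusted p = 0.061), nor when WT_mock replicate 1, WT_mock replicate 2, WT_BR replicate 1 or axr2_BR replicate 2 was dropped (adjusted p at most 0.086), and that of SWEET11 was not when either WT_BR replicate 1 or WT_mock replicate 1 was dropped (adjusted p at most 0.072).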

How the results depend on the processing

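Of the 104 changes tested over the 8 SWEET genes and 13 comparisons 25 were called. All 25 kept their direction under the 19 alternatives and 13 stayed called under each; of the 79 uncalled changes 31 changed sign and 11 were called under at least 1. With no filter, which adds dim probe sets to the adjustment, 2 genes (not 4) were called for 24-eBL in wild type and 1 (not 2) for the difference of response between axr2 and wild type. Without the variance trend the latter count was 0. With the offset or with dim values raised, SWEET3 made 1 call (not 0) for 24-eBL in msg2, and 1 (not 0) for the difference of response between axr2 and msg2. In the raised setting the axr2 side of the latter is background alone. With the 60th percentile as background 4 genes (not 8) were above it on both arrays of a group.

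Leaving out 1 array at a time, with the remaining array of its group assumed to vary like the others, gave 1 to 4 calls for 24-eBL in wild type, 0 to 1 in msg2, 0 to 1 in axr2 and 2 to 3 for the mean. Differences of response gave 0 to 2 calls between axr2 and wild type, 0 to 1 between axr2 and msg2 and 0 between msg2 and wild type. Untreated groups gave 0 to 1 for msg2 against wild type, 4 to 7 for axr2 against wild type and 2 to 5 for axr2 against msg2, and treated groups 0, 2 to 4 and 2 to 4. Without axr2_mock replicate 1, which leaves the dim reading of 2.13 for that group, the change of SWEET3 with 24-eBL in axr2 was 3.11. With dim values raised it was −0.14, which is the gap between the array backgrounds alone. Without msg2_mock replicate 2 SWEET14 rose with 24-eBL in msg2 (3.22, adjusted p = 0.043).

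Replicate numbers did not pair the arrays, since the differences between replicates correlated at −0.08 to 0.07 over 15 pairs of groups. With the replicate block the counts were unchanged, at 4 for 24-eBL in wild type, 2 for the mean, 2 for the difference of response between axr2 and wild type, 6, 4 and 1 for untreated axr2 against wild type, axr2 against msg2 and msg2 against wild type, and 3 for each treated axr2 comparison.

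Centring arrays on their medians moved the balance of higher to lower calls over all probe sets by more than 10 percentage points in several comparisons: from 228 and 361 to 273 and 270 for 24-eBL in msg2, from 104 and 258 to 210 and 182 in axr2, from 561 and 748 to 709 and 580 for the mean, from 167 and 224 to 320 and 144 for the difference of response between axr2 and wild type, from 21 and 11 to 26 and 8 for that between msg2 and wild type, from 319 and 300 to 203 and 371 for untreated msg2 against wild type, from 1242 and 1280 to 672 and 1838 for untreated axr2 against msg2, and from 861 and 1063 to 616 and 1357 for treated axr2 against msg2. The cause of these changes was not tested.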

Other observations

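SAG29 and AtVEX1 carry SWEET15 and SWEET5 as synonyms in the gene table, and their symbols left them outside the rule. SAG29, known as a gene of senescing leaves and of seeds, was above background on 11 of 12 arrays. It was at 6.44 and 6.24 in untreated wild type, 5.55 and 6.61 in treated wild type, 7.19 and 7.22 in untreated msg2, 6.16 and 6.75 in treated msg2, 6.58 and 6.57 in untreated axr2 and 6.56 and 6.36 in treated axr2. Untreated msg2 was the highest group and overlapped no other, a separation not counted over all probe sets. SAG29 was called in none of 13 comparisons, and its difference between untreated msg2 and untreated wild type was 0.86 ± 0.36 (adjusted p = 0.20). AtVEX1, known from the vegetative cell of pollen, lay between 0 and 5.42 and was above background on no array.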
